A study of Homo sapiens with 18 samples.

Results

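Peaks of RNA polymerase II (Pol II) and of 2 phosphorylated forms of it were examined at 7 genes of the SREBP2 pathway, which controls cholesterol synthesis: HMGCS1, IDI1, FDFT1, SQLE, LSS, SREBF2 and INSIG1. The genes were taken as a named list, and every peak from 5 kb before to 5 kb after each gene (RefSeq, GRCh38.p14) was taken. They are 7 of 18727 protein-coding genes of at least 2 kb on chromosomes 1 to 22 and X. The material was HCT116, a human colon cancer cell line, whose INTS11 carries an auxin-inducible degron (INTS11-AID) in all libraries, Control included. INTS11 is the endonuclease of Integrator, a complex that cuts nascent Pol II transcripts, and IAA is auxin, which triggers destruction of the tagged protein. One antibody bound Pol II as such, and the others bound its C-terminal tail when phosphate sat on tyrosine 1 (Tyr1P) or on serine 2 (Ser2P). Each antibody had 2 numbered libraries labelled Control and 2 labelled IAA. Another 4 Pol II libraries had no number and 1 label each (Control; EGF; IAA; IAA with EGF, written IAA+EGF), and 2 libraries were input DNA. A single protocol text covers all libraries: 14 h in medium without serum, IAA at 500 µM for 1 h, EGF (epidermal growth factor) at 100 ng per µl for 30 min and interferon beta at 2000 U for 1 h. It does not say which library received what, whether the line is 1 clone, or what the Control libraries received in place of IAA. No library is labelled as grown with serum, so an effect of serum starvation on these genes could not be compared; the comparisons below are IAA against Control.

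Cholesterol is built from acetyl-CoA through mevalonate, isoprenoids, squalene and lanosterol. SREBP2, the product of SREBF2, is a membrane-bound transcription factor. When sterols are low, its partner SCAP escorts it from the endoplasmic reticulum to the Golgi, where proteases free the part that enters the nucleus and binds sterol regulatory elements in promoters. INSIG1 holds SCAP and SREBP2 back when sterols are plentiful, and is itself an SREBP target. Pol II phosphorylated at serine 2 is typical of elongation, while Pol II near gene starts is often paused.

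The promoters are shown because most of the Pol II peaks described here sat on or just after them. RefSeq promoter entries (GRCh38.p14) matched 5 of the 7 genes: HMGCS1, IDI1, LSS, SREBF2 and INSIG1. The 250 bases before the start of 4 of them follow, 5′ to 3′ in the direction of the gene. Capitals mark every match, on either strand, to a CCAAT box (CCAAT or ATTGG, the site of the NF-Y factor that often works beside SREBP), a sterol regulatory element (TCACNCCAC or GTGGNGTGA) or an E-box (CACGTG). HMGCS1 is at chr5:43313413-43313662 and LSS at chr21:46228775-46229024, both on the minus strand. SREBF2 is at chr22:41832855-41833104 and INSIG1 at chr7:155297628-155297877, both on the plus strand.
HMGCS1: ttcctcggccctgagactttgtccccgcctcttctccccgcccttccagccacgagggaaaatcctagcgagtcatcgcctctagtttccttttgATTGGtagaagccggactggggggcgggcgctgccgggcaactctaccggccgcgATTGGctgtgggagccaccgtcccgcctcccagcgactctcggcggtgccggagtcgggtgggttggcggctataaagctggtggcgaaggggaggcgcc
LSS: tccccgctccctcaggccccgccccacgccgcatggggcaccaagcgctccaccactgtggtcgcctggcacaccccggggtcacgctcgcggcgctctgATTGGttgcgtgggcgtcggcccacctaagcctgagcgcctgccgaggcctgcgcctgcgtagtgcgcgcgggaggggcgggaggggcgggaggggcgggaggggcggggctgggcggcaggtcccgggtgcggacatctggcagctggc
SREBF2: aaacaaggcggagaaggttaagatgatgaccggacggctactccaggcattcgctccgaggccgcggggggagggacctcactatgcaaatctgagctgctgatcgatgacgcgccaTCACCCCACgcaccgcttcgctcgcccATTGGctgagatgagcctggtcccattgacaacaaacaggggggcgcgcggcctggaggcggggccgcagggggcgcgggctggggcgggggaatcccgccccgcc
INSIG1: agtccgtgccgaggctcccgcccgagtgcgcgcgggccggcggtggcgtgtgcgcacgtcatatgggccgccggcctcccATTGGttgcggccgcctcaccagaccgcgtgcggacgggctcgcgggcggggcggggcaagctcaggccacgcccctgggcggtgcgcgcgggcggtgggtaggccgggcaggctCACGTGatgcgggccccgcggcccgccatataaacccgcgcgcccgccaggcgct
A CCAAT box was found in all 4 and in the promoter at an inner start of IDI1, and in 32.0% of 35116 RefSeq promoters of the same length. SREBF2 held the sterol regulatory element, 133 bases before its start; 0.883% of promoters held one. INSIG1 held the E-box, 55 bases before its start, found in 6.34% of promoters. These matches describe letters in the window and not sites of binding.

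Depth, estimated from the deposited peak statistics, ranged from 2.94 to 6.06 fragments per kb in the numbered Pol II libraries, 6.59 to 7.44 for Tyr1P and 6.43 to 8.05 for the unnumbered Pol II libraries. For Ser2P it was 13.6 and 3.28 in Control and 9.34 and 10.5 with IAA. The Ser2P lists held 37442 and 15420 peaks in Control and 99476 and 88987 with IAA, so their length moved with the treatment, and Ser2P Control replicate 2 was both the shallowest and the shortest list of that antibody. Marker genes were counted where they were among the genes compared, 7 of 8 listed for colon epithelium and 4 of 7 for blood cells. Of the 7 colon epithelial markers, 7 held Pol II at their main site in all 4 numbered libraries. The same held for 1 of 4 blood cell markers, 2 of 6 fibroblast and muscle markers and 2 of 4 neuron markers. Over all genes with a main site the share was 72.1%. The inputs held 0 peaks near the 7 genes. Nothing in the labels says that replicates were separate cultures, so the spread between them may be technical.

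All 7 genes carried Pol II in Control, and mostly at 1 place. The main Pol II site was defined as the summit of the top-ranked peak in the unnumbered library labelled Control. It lay 34 bp after the start of HMGCS1, 36 bp for SQLE, 41 bp for LSS, 80 bp for INSIG1 and 94 bp for SREBF2. In the other 2 genes it lay well inside the listed gene, 7856 bp from the start of IDI1 and 7220 bp from that of FDFT1. IDI1 has listed inner starts at 7585 and 7818 bp, next to its main site. SQLE and FDFT1 were read from their lower-coordinate end, the end nearer their top Pol II peak. The numbered Pol II libraries held 11 and 14 peaks over the 7 genes and their flanks in Control and 7 and 9 with IAA. Tyr1P had 16 and 14, then 17 and 17. Ser2P had 26 and 12, then 55 and 52. The map of peaks shows that the additional Ser2P peaks lay mostly inside and after the genes. Other listed genes fall in these windows, among them CTSB at FDFT1, WASHC5 at SQLE, SPATC1L at LSS, and CCDC134 and SHISA8 at SREBF2. Flank peaks in such windows cannot be assigned to the 7 genes alone.

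**Figure D1:**
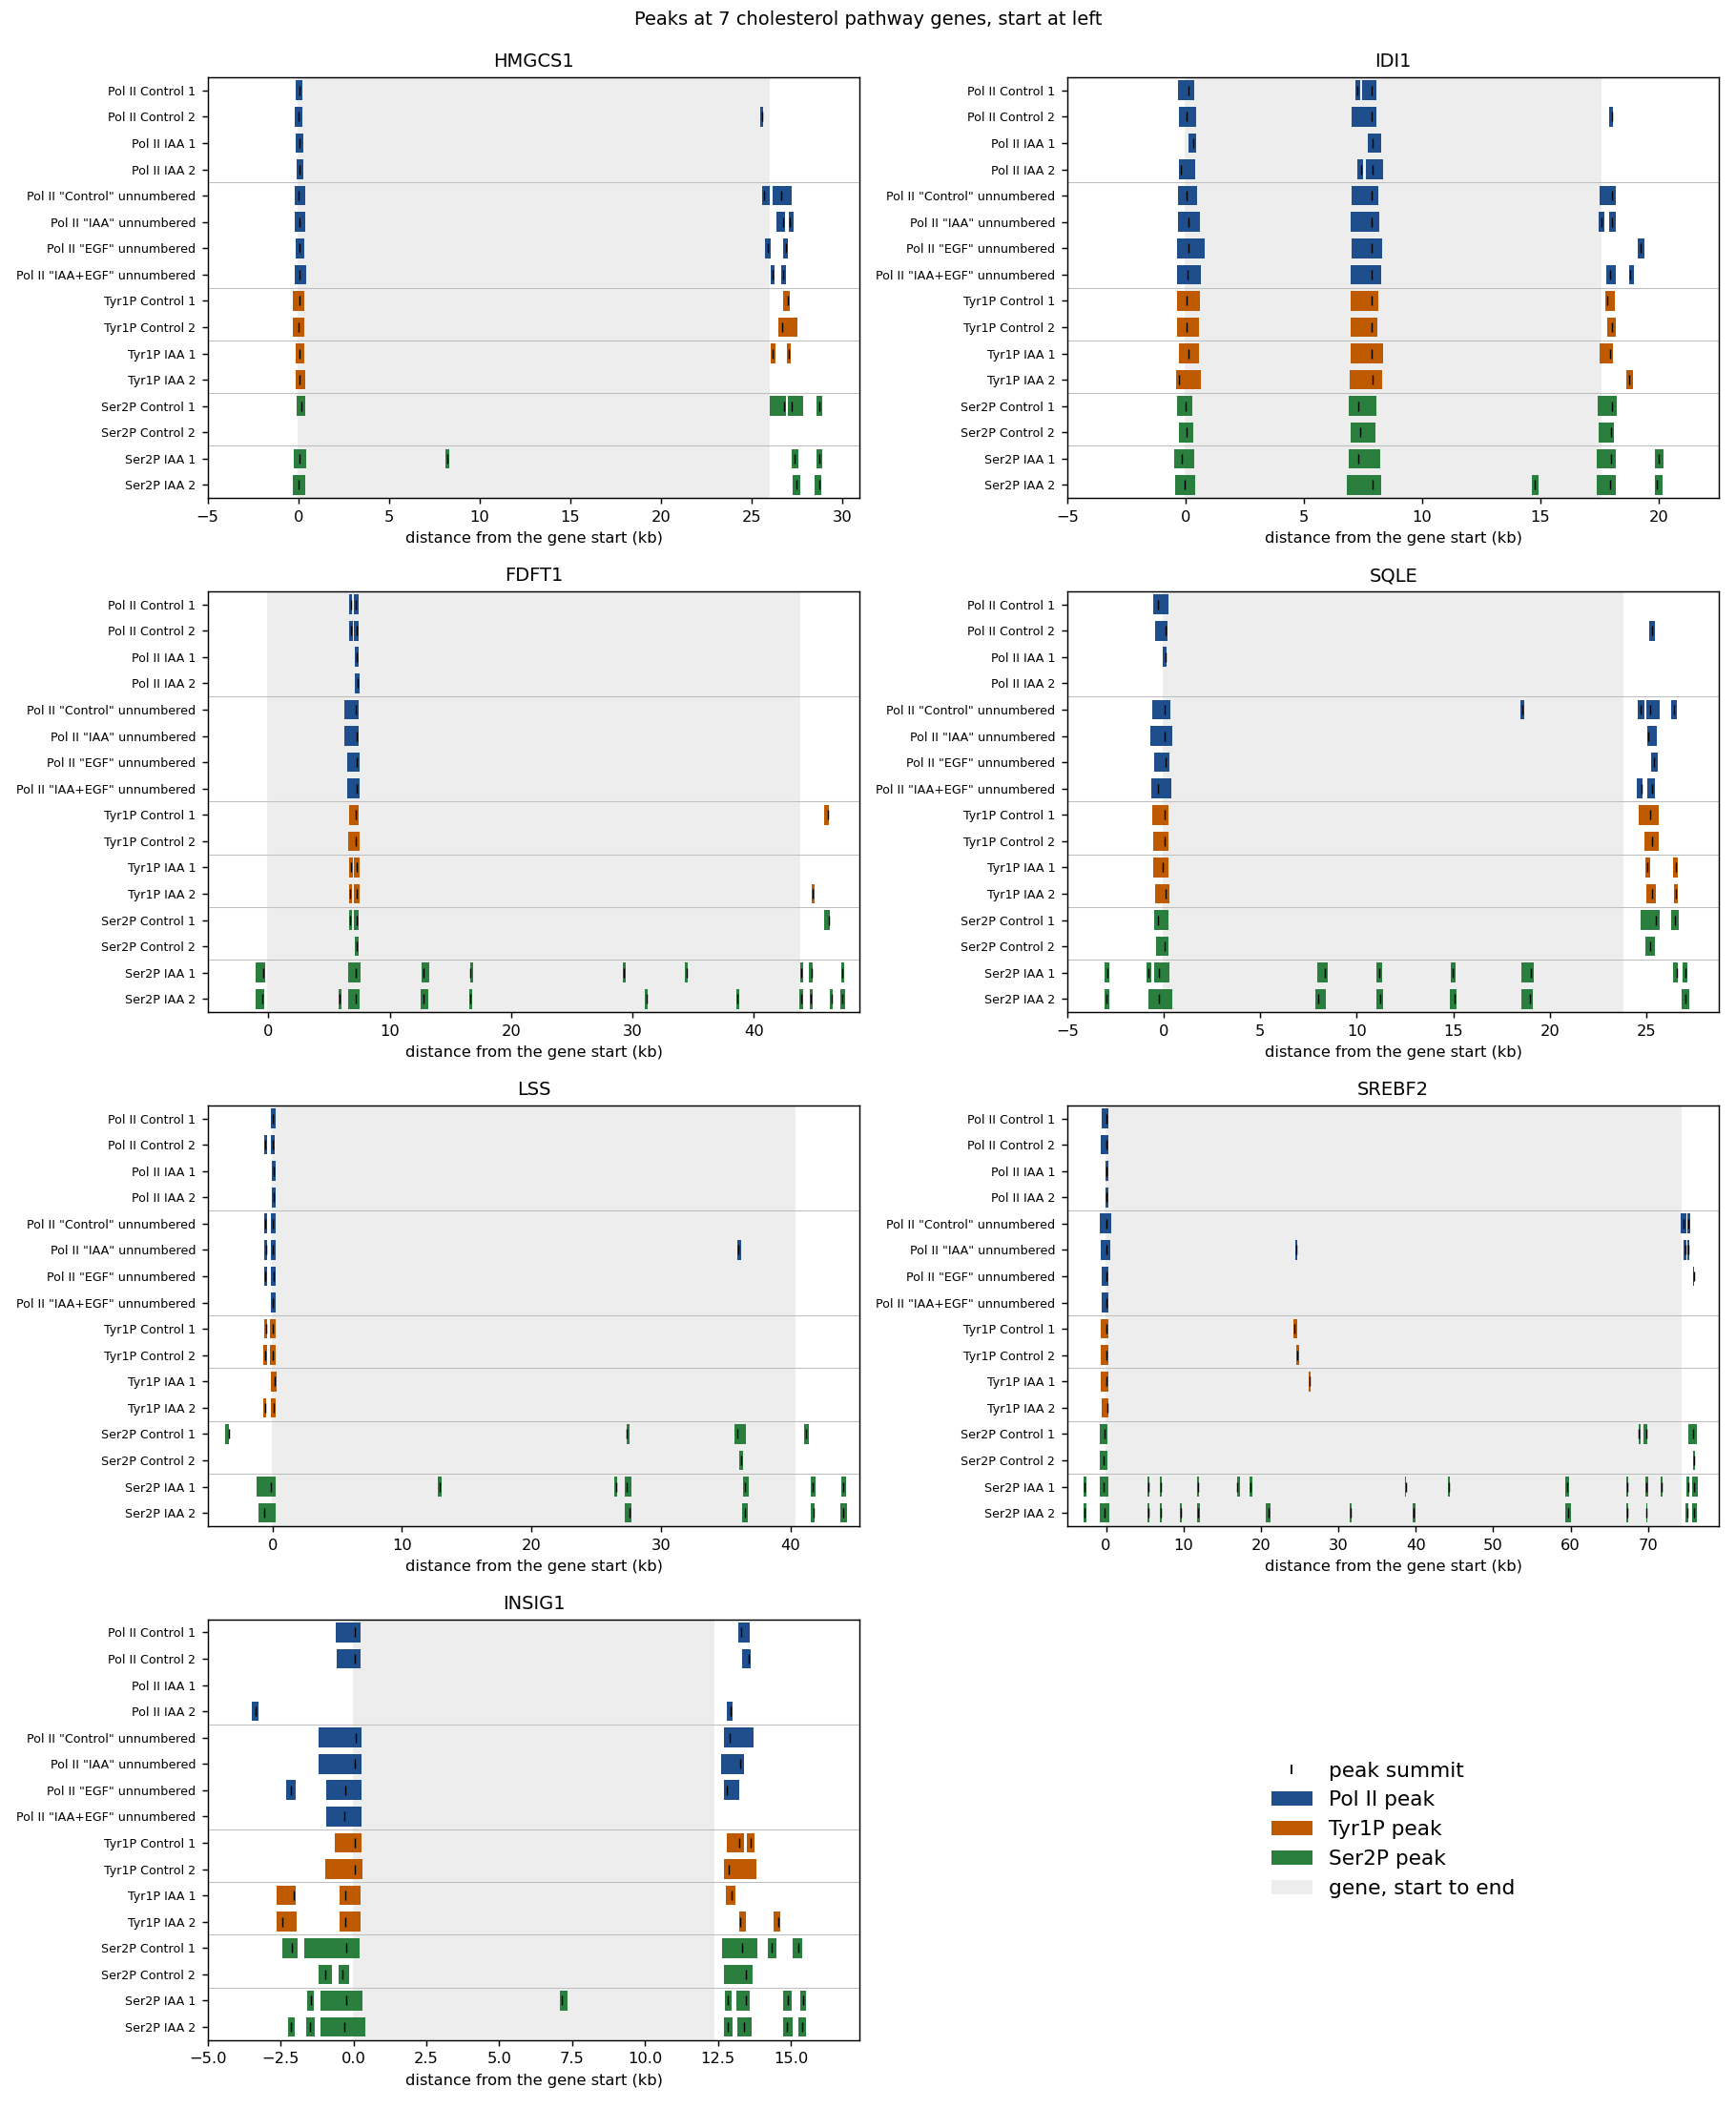
Peaks in each of 16 libraries (rows) along each gene, with the distance from the gene start in kb on the horizontal axis; bars span peaks, ticks mark summits and grey spans the gene. Ser2P with IAA held 55 and 52 peaks over the 7 genes, and INSIG1 had no Pol II peak at its start in either numbered IAA library.

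For Pol II, a peak within 500 bp of the main site was present in all 4 numbered libraries at 5 of the 7 genes, and at 72.1% of 13953 genes with a main site. It was lost, present in both Control and absent from both IAA libraries, at 1 of 7, INSIG1, and at 6.91% of genes. SQLE kept it in 1 of the 2 IAA libraries. An absent peak means only that none was called there. Tyr1P held a peak at the main site of 7 of 7 genes in all 4 libraries (88.6% of genes) and lost it at 0 of 7 (2.74%). Ser2P held one in all 4 libraries at FDFT1, SQLE, SREBF2 and INSIG1, 4 of 7 (57.4%), lost it at 0 (0.989%) and gained it, absent from both Control and present in both IAA libraries, at 0 (6.04%).

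Where the peak remained in all 4 libraries, the Pol II summit lay farther downstream with IAA. The 5 genes HMGCS1, IDI1, FDFT1, LSS and SREBF2 had both IAA summits farther into the gene than both Control summits, 5 of 5 tested, against 47.0% of 8319 genes; the opposite held for 0 of 5, against 23.7%. The median shift of the 5 was 42.5 bp, from 23 to 54.5 bp, and the median over all genes was 30 bp with quartiles of -43.5 and 70. In Tyr1P the same 5 genes had summits downstream, 5 of 7 tested against 45.8% of 10130 genes. INSIG1 had its summit upstream, 1 of 7 against 22.7%, and SQLE overlapped. All of the called downstream shifts were small beside the fragment length, those of Tyr1P running from 13 bp (HMGCS1) to 69 bp (LSS). The shortest peak, which follows that length, was 190 and 162 bp in Pol II Control and 196 and 198 bp with IAA. For Tyr1P it was 207 and 213 bp in Control and 215 and 222 bp with IAA. That length moved in the same direction as the treatment and its part in the shift was not tested. For any single gene, 2 libraries against 2 allow no exact permutation p below 0.333 (two-sided), which is the p of each difference called here.

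**Figure D2:**
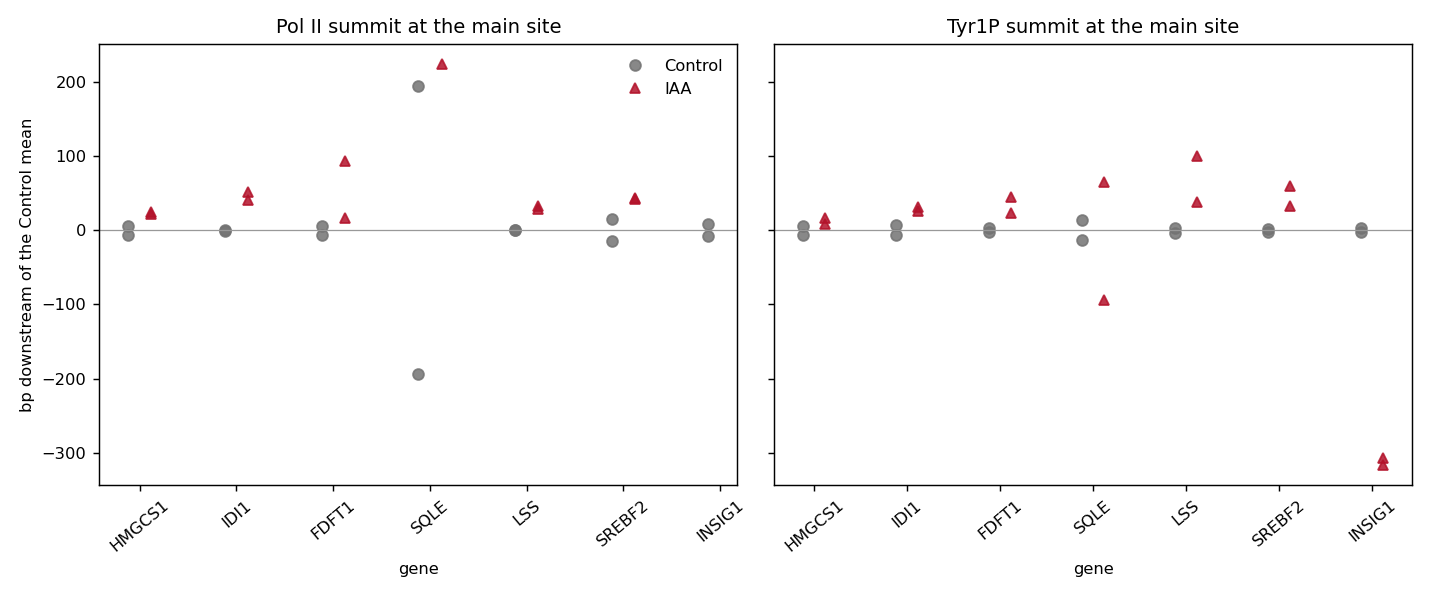
Summit position at the main site in each numbered library, in bp downstream of the mean of the 2 Control libraries, for Pol II (left) and Tyr1P (right); each point is 1 library. IAA summits lie above both Control summits in HMGCS1, IDI1, FDFT1, LSS and SREBF2 for both antibodies, and below in INSIG1 for Tyr1P, by -311.5 bp between the means, where no Pol II peak was called with IAA.

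The stack of fragments at the main site was lower with IAA for most of the genes in Pol II and Tyr1P. It is given as times background, the estimated fragments at the summit divided by the library's own genome-wide background. In Pol II Control the shallower library (2.94 against 5.72 fragments per kb) had the higher value at every gene. So did the shallower Ser2P Control library at FDFT1, SQLE, SREBF2 and INSIG1. With IAA the shallower Pol II library was higher at LSS but lower at HMGCS1, IDI1, FDFT1 and SREBF2. The part of depth in the differences below was not tested. Pol II was lower in both IAA than in both Control libraries at 4 of 5 genes with the peak in all 4 libraries, HMGCS1, FDFT1, LSS and SREBF2, against 70.1% of 10066 genes. The ratio of means had a median of 0.521 over the 5 genes and 0.580 over all. Tyr1P was lower at 6 of 7, all but IDI1, against 89.8% of 12367 genes, with medians of 0.503 and 0.563. Ser2P was higher at 4 of 4, against 91.4% of 8004 genes, with medians of 2.09 and 1.93. These shares are close to those of genes at large. The Pol II peak was narrower in both IAA libraries at 2 of 5 genes, LSS and SREBF2, against 31.9%.

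**Figure D3:**
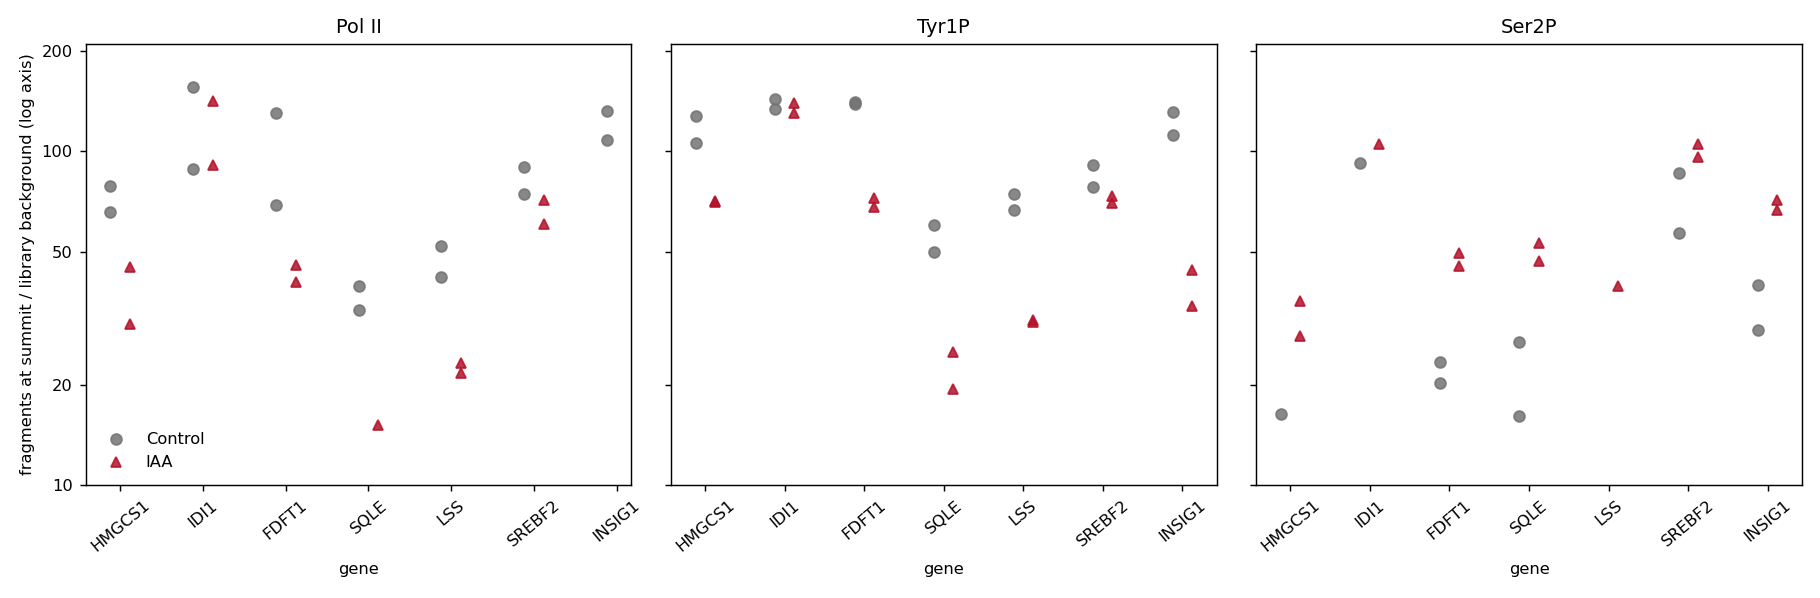
Estimated fragments at the main-site summit over the library background (log axis) in each numbered library for Pol II, Tyr1P and Ser2P; a missing point means no peak within 500 bp. IDI1 overlaps between treatments for Pol II and Tyr1P, whereas Tyr1P at the other 6 genes lies lower with IAA and Ser2P at FDFT1, SQLE, SREBF2 and INSIG1 lies higher.

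The share of each gene, start to end, under Ser2P peaks was higher with IAA in all 7 genes. It averaged 2.11% ± 0.77 (SD, n = 2) over the 7 genes in Control and 5.93% ± 0.03 with IAA. Both IAA libraries exceeded both Control libraries in 7 of 7 genes, against 64.3% of 18727 genes. None was lower, against 0.657%. Among genes with Pol II at the main site in all 4 numbered libraries the share was 83.7%, beside 5 of 5. The margin was narrow at HMGCS1, where the lower IAA value was 1.53% and the higher Control value 1.46%. At LSS these were 2.92% and 2.68%. The median difference was 3.21 percentage points over the 7 genes and 1.79 over all. Peaks more than 1 kb inside both ends numbered 7 and 3 in Control and 27 and 24 with IAA. These counts include the peaks at the inner site of IDI1 and at the main site of FDFT1, which lie that far inside. The median width of these interior peaks was 402 and 282 bp in Control and 278 and 331 bp with IAA. Both Control medians are the widths of the FDFT1 main-site peak. When every Ser2P list was held to equal length by rank, the excess of 34.5 peaks turned to -1, and covered share was higher in 6 of 7 genes. With 5 kb added on each side it was higher in 5 of 7. The share of all genes was not computed under either setting, so these counts have no background beside them.

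For Pol II the covered share was higher in 1 of 7, LSS, against 20.0% of genes, and lower in 3, FDFT1, SQLE and INSIG1, against 19.2%. With 5 kb added on each side, no gene was higher and 5 were lower, and LSS turned to -0.30 percentage points. Without Control replicate 1 or without IAA replicate 2, 5 genes were lower. Without IAA replicate 1 or Control replicate 2, 2 were higher. Leaving out a library can only keep or add calls, and shares of all genes were computed for the main setting only. Tyr1P was higher in 3, HMGCS1, IDI1 and LSS, against 19.4%, and lower in 3, FDFT1, SREBF2 and INSIG1, against 26.4%. With 5 kb added, HMGCS1 turned to -1.62 and LSS to -0.24 percentage points.

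**Figure D4:**
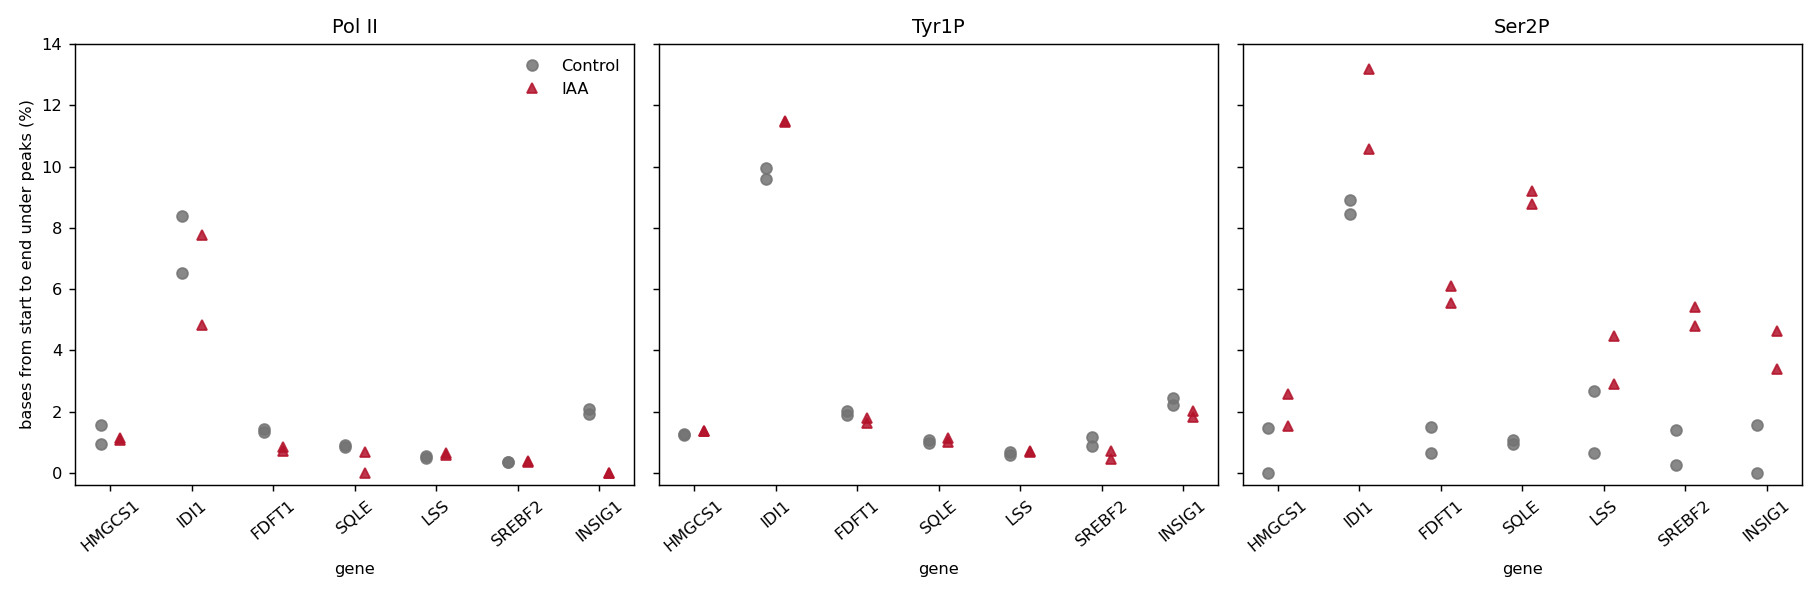
Percent of bases from gene start to gene end under peaks in each numbered library, by gene and antibody; each point is 1 library. Ser2P with IAA lies above both Control libraries in 7 of 7 genes, and Pol II at INSIG1 is at 0 in both IAA libraries.

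HMGCS1 (chromosome 5, 43287470 to 43313412) encodes the cytosolic synthase that makes HMG-CoA, an early step of the pathway. No other listed gene falls in its window. Its Pol II summits lay 42 and 30 bp after the start in Control and 60 and 58 bp with IAA, and Tyr1P summits 38 and 26, then 41 and 49 bp. Pol II at the site was 78.9 and 65.8 times background in Control and 30.4 and 45.0 with IAA, groups that did not overlap (72.3 ± 9.23 against 37.7 ± 10.3, SD, n = 2). Tyr1P was 128 and 106, then 71.3 and 70.6. The authors' fold, which describes a peak within its own list, was 15.6 and 16.5 for Pol II in the Control lists and 8.55 and 10.8 in the IAA lists. The Tyr1P peak had the highest fold of the 7 genes in each Tyr1P list, 20.5 and 18.3, then 15.0 and 13.8. Ser2P at the start was 16.4 times background in Control replicate 1 and 35.5 and 28.0 with IAA; Control replicate 2, the shallow library, held no Ser2P peak anywhere in the window. After the end of the gene, Ser2P summits recurred at 27184 and 28704 bp from the start in Control replicate 1, at 27363 and 28733 in IAA replicate 1 and at 27476 and 28698 in IAA replicate 2.

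IDI1 (chromosome 10, 1039152 to 1056704), which isomerises isopentenyl diphosphate, held the highest covered share of the 7, as a percent of gene length. Under Ser2P with IAA, SREBF2 (3547 and 4012) and FDFT1 (2431 and 2662) had more bases under peaks than IDI1 (1855 and 2314). WDR37, read in the opposite direction, starts 319 bp inside the upper end of IDI1 and overlaps it. The peak at the outer start of IDI1 therefore cannot be told apart from WDR37. At the inner site, Pol II summits stood at 7863 and 7864 bp in Control and at 7904 and 7915 bp with IAA, and Tyr1P summits at 7848 and 7861, then 7880 and 7886 bp. Its Pol II peak ranked 679 of 22898 and 2283 of 27929 in Control and 640 of 18263 and 401 of 23609 with IAA, with deposited folds of 16.7, 12.5, 11.7 and 14.3. Times background was 156 and 88.5 in Control and 91.1 and 142 with IAA, so the groups overlapped, as they did for Tyr1P (144 and 134, then 130 and 140). The Tyr1P peak was 1157 and 1119 bp wide in Control and 1385 and 1377 bp with IAA. The Ser2P summits of the inner peak lay at 7278 and 7397 bp in Control and at 7290 and 7906 bp with IAA, so 2 of the 4, 7397 and 7906 bp, lay within 500 bp of the main site. A further Ser2P peak past the end appeared in both IAA libraries, at 19982 and 19934 bp.

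FDFT1 (chromosome 8, 11795582 to 11839298) encodes squalene synthase, which commits isoprenoids to sterols. Pol II summits lay at 7240 and 7252 bp in Control and 7262 and 7339 bp with IAA. Times background went from 131 and 69.0 to 40.5 and 45.8, and for Tyr1P from 139 and 141 to 72.5 and 68.0. Within their lists these Pol II peaks ranked 889 and 3801 in Control (deposited folds of 17.8 and 12.2) and 3380 and 4862 with IAA (8.30 and 7.63). In Control the Pol II lists held a second, weaker peak at 6782 and 6789 bp, on the upstream side of the main one, that was in neither numbered IAA list. Tyr1P formed 1 peak of 823 and 880 bp there in Control and separate peaks in both IAA lists, at 6781 and 7253 bp and at 6715 and 7275 bp. The covered share under Pol II went from 1.33% and 1.44% to 0.727% and 0.856%. Ser2P went the other way at the same site, from 20.2 and 23.3 to 49.7 and 45.4 times background, and its covered share from 1.51% and 0.645% to 5.56% and 6.09%, a difference of 4.75 percentage points that was 1.52 with lists of equal length. Ser2P peaks recurred in both IAA libraries at 12808 and 12823 bp and at 16666 and 16607 bp, where Control had none.

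SQLE (chromosome 8, 124998505 to 125022283) encodes squalene epoxidase, a rate-limiting oxygen-dependent step. The divergent SQLE-DT lies beside its start. Its Pol II summit was at -315 and 73 bp in Control (deposited folds of 8.09 and 8.67) and 103 bp in IAA replicate 1, where the peak ranked 16909 of 18263 with 15 fragments at the summit; IAA replicate 2 had no Pol II peak in the window. Tyr1P persisted, at 60.1 and 49.8 times background in Control and 19.4 and 25.02 with IAA. Ser2P at the start was 16.1 and 26.8, then 53.1 and 47.0. Covered share under Ser2P was 1.06% and 0.9504% in Control and 8.79% and 9.21% with IAA, an 8.93-fold ratio of means. The difference of 7.99 percentage points was the largest of the 7 genes with all peaks, but fell to 0.47 with lists of equal length, below those of IDI1 (2.42), INSIG1 (2.08), FDFT1 (1.52) and HMGCS1 (0.89). The 4 interior Ser2P summits of IAA replicate 1, at 8334, 11160, 14980 and 19010 bp, each had a neighbour in IAA replicate 2, at 7994, 11197, 15055 and 18950 bp. Neither Control list held an interior Ser2P peak.

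LSS (chromosome 21, 46188446 to 46228774) encodes lanosterol synthase, which folds squalene epoxide into the first sterol. MCM3AP-AS1 starts 457 bp before it in the opposite direction, and a weak Pol II peak there (summit at -527 bp) was in Control replicate 2 only among the 4 numbered Pol II lists. Pol II summits at LSS were at 44 and 44 bp in Control and 77 and 72 bp with IAA, and Tyr1P summits at 36 and 43, then 139 and 78 bp. Times background was 52.0 and 42.1, then 23.3 and 21.7 for Pol II, and 74.8 and 66.6, then 31.3 and 30.8 for Tyr1P. The deposited Pol II folds were 9.89 and 9.54 in Control and 7.95 and 7.16 with IAA. No Ser2P peak lay within 1 kb of the start in Control. With IAA a broad one did in both libraries, 1463 and 1281 bp wide with summits at -117 and -641 bp, and it spans both starts. Toward the end of the gene, Ser2P summits stood at 35915 and 36202 bp in Control and at 36481 and 36448 bp with IAA.

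SREBF2 (chromosome 22, 41833105 to 41907305) is the transcription factor gene of the set. The Pol II summit lay at 80 and 51 bp in Control and at 107 and 109 bp with IAA, and the peak was 815 and 883 bp wide, then 367 and 400 bp. Cover inside the gene was 0.344% and 0.341%, then 0.340% and 0.395%, so most of the difference in width lay before the start. Within their lists they ranked 3734 and 3415 in Control (deposited folds of 11.1 and 11.9) and 2351 and 2841 with IAA (7.39 and 7.98). Tyr1P summits went from 77 and 73 to 108 and 134 bp. Pol II was 89.6 and 74.4 times background in Control and 60.7 and 71.7 with IAA (82.0 ± 10.7 against 66.2 ± 7.73, SD, n = 2). The Ser2P summit was on the other side of the start in all 4 libraries, at -230 and -325 bp in Control and -340 and -239 bp with IAA. Ser2P peaks in the window went from 4 and 2 to 15 and 14, and covered share from 1.40% and 0.268% to 4.78% and 5.41%. That difference of 4.26 percentage points was 0.23 with lists of equal length. Interior summits recurred between the IAA libraries at 5529 and 5478, 7030 and 7046, 11893 and 11909, and 59590 and 59742 bp. Tyr1P cover was lower with IAA (1.18% and 0.883%, then 0.729% and 0.443%), a direction that turned to 0.17 percentage points higher with lists of equal length and to 0.0094 higher with −log10 q of at least 5.

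MIR33A lies inside SREBF2, its hairpin starting 67839 bp from the gene start. Its 5p product is printed because miR-33a acts in the same pathway, being known to repress the cholesterol exporter ABCA1. Capitals mark the seed, bases 2 to 8.
hsa-miR-33a-5p: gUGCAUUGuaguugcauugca
Ser2P summits stood before the hairpin at 67273 and 67326 bp in the IAA libraries and after it at 68833 bp in Control replicate 1. Control replicate 2 had none nearby, and neither Pol II nor Tyr1P had a peak at the hairpin.

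INSIG1 (chromosome 7, 155297878 to 155310235) was the only 1 of the 7 whose Pol II start peak was in both Control and neither numbered IAA list. Its divergent noncoding neighbour INSIG1-DT starts 220 bp before it in the opposite direction. In Control its Pol II peak was among the strongest of the set, ranked 1564 of 22898 and 1443 of 27929, with summits 49 and 33 bp after the start, 74 and 100 fragments at the summit, 133 and 108 times background and deposited folds of 12.3 and 12.5. Neither numbered IAA list held a Pol II peak within 1 kb of the start. IAA replicate 1 had none in the window, and IAA replicate 2 had only weak peaks at -3356 and 12929 bp.

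Tyr1P remained at INSIG1, with its summit toward the other start. The summits were at 42 and 37 bp in Control and at -267 and -277 bp with IAA, next to the listed start of INSIG1-DT. The peaks still reached into INSIG1, covering 227 and 251 bp of it with IAA and 273 and 303 bp in Control. Its rank went from 3814 of 38821 and 5219 of 37848 to 17022 of 33077 and 12416 of 30461, and its level from 131 and 112 to 34.4 and 44.3 times background (122 ± 13.3 against 39.3 ± 6.99, SD, n = 2). That ratio, 0.323, was the lowest of the 7 and lies below the lower quartile of all genes, 0.461. Ser2P sat on the INSIG1-DT side in all 4 libraries, at -255 and -364 bp in Control and -259 and -316 bp with IAA, where it went from 29.2 and 39.7 to 71.6 and 66.7 times background. After the end of the gene, at 12358 bp, Ser2P peaks stood at 13341 and 13448 bp in Control and at 13457 and 13392 bp with IAA, and further ones at 14895 and 14870 and at 15419 and 15379 bp with IAA.

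The unnumbered Pol II libraries, 1 per label and so without a replicate check, held a peak at the main site of all 7 genes. In the library labelled Control this holds by definition, because that library defined the site. Over all genes with a main site the share was 95.6% in the library labelled IAA. It was 93.5% in that labelled EGF and 93.5% in that labelled IAA+EGF. The library titled IAA carries EGF in the name of its deposited list and the library titled EGF carries IAA, so both are called by their titles and no direction is drawn from them alone. At INSIG1 the summit stood at 80 bp in the library labelled Control, 32 bp in that labelled IAA, -278 bp in that labelled EGF and -315 bp in that labelled IAA+EGF. The level was 122 and 160 times background in the former pair and 78.1 and 83.2 in the latter. FDFT1 had 127 and 166, then 98.6 and 91.9. Against the library labelled Control, the summit was downstream at 2 and upstream at 5 of 7 genes in the library labelled IAA, beside 51.8% and 46.3% of all genes and a median of 1 bp. It was downstream at 6 and upstream at 1 in that labelled EGF (61.0% and 38.3% of all genes, median 14 bp) and downstream at 4 and upstream at 3 in that labelled IAA+EGF (61.1% and 37.8%, median 13 bp). None of the unnumbered libraries labelled IAA, EGF or IAA+EGF showed the loss of the INSIG1 start peak that both numbered IAA libraries showed. The unnumbered library labelled Control defined the site and could not show such a loss. Because the names of the libraries titled IAA and EGF conflict, neither can serve as a repeat of the numbered IAA libraries.

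Other genes of the pathway were counted from named lists, to be read beside the shares of all genes: for Pol II cover 20.0% higher and 19.2% lower, for Tyr1P 19.4% and 26.4%, for Ser2P 64.3% and 0.657%, and 6.91% with the Pol II site peak lost. Of 17 further cholesterol synthesis enzymes, Pol II cover was higher in 7 and lower in 4, Tyr1P higher in 5 and lower in 7, and Ser2P higher in 12 and lower in 0. The Pol II site peak was lost at 1, LBR, a sterol reductase of the nuclear envelope: its cover was 3.15% and 2.77% in Control and listed at 0 in both IAA libraries. Among 12 genes of SREBP regulation and sterol uptake, Pol II was higher in 2 and lower in 6, Tyr1P higher in 1 and lower in 9, and Ser2P higher in 11 and lower in 0. Here the site peak was lost at SREBF1, the gene of the related factor SREBP1, and at ABCG1, a sterol exporter named after its values were seen. SREBF1 cover under Pol II was 3.23% and 3.47% in Control and 0 with IAA, and under Tyr1P 7.39% and 6.91%, then 0 and 0.904%. MVK, mevalonate kinase, had less Pol II cover by 1.73 percentage points (2.64% and 3.496%, then 0.748% and 1.94%) and TM7SF2, another sterol reductase, more by 1.79 (6.08% and 5.46%, then 7.34% and 7.78%). Under Tyr1P, DHCR7, which makes cholesterol from its immediate precursor, went from 6.48% and 8.77% to 3.35% and 4.33%, and LBR from 3.57% and 3.74% to 0.996% and 1.89%. SC5D, a sterol desaturase, went from 1.56% and 1.64% to 2.03% and 5.72%. Under Ser2P, GGPS1, which makes geranylgeranyl diphosphate, went from 8.86% and 3.11% to 20.3% and 16.8%.

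Outside the pathway, the 5 genes whose covered shares over the 16 libraries came closest to the median profile of the 7 were SCYL3, ZMYM2, KIF23, CD58 and SPEN, with mean absolute differences of 0.299 to 0.310 percentage points. The 7 genes themselves differed from that profile by 0.383 (FDFT1) to 7.81 (IDI1) percentage points, so IDI1 lay farther from it than the other 6.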

How the data were processed

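ChIP-seq peak lists of 18 libraries of HCT116 INTS11-AID cells were used. The submitters' processing notes name build hg38 and, with roles and options not stated, MACS2 2.2.7.1, Picard 2.25.7, deepTools 3.5.1, Trim Galore 0.6.6 and Bowtie2 2.3.4.1. The authors deposited 1 list per library, with a fold enrichment (a ratio), −log10 p, −log10 q and a summit per peak; fold and q only described or ranked peaks within a list. Groups came from titles. Fragments at each summit and the library background were solved from the deposited fold and −log10 p, within a relative tolerance of 0.0002, and the solution was tested on simulated data. The lists hold no read totals, so depth is an estimate and counting error is larger in the shallower libraries.

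Covered share, peaks in windows and the exact permutation test were computed with Python 3.11.15, numpy 2.4.6, pandas 2.3.3 and scipy 1.17.1. A difference was called where both IAA libraries lay on one side of both Control libraries, with the same calls over all 18727 genes as background. Genes, lists and members were chosen with earlier results of these data known; main site, summit shift, fragments and widths were added after the lists were seen. Named pathway genes are, per antibody, at most 4 with the largest called difference in covered share over the 3 pathway lists; 1 such gene is not reported here. The numbers 1 and 2 of replicates were not treated as pairs. Alternatives were −log10 q of at least 5, lists of equal length, other gene bounds, leaving out each library and a replicate block.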

Additional observations from a re-analysis of the deposited data

Results flagged for a closer look

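At 4 of the 7 genes, covered share moved one way for Pol II or Tyr1P and the other way for Ser2P under the same contrast, IAA minus Control, with both IAA libraries beyond both Control libraries each time. The difference between antibodies was not tested. For Pol II the change was -0.59 percentage points at FDFT1, -0.55 at SQLE and -2.00 at INSIG1, beside Ser2P changes of 4.75, 7.99 and 3.21. For Tyr1P it was -0.24 at FDFT1, -0.44 at SREBF2 and -0.40 at INSIG1, beside 4.26 for Ser2P at SREBF2. Over all 18727 genes, 27.0% were lower for Pol II or Tyr1P and higher for Ser2P by the same calls. The Ser2P lists held 37442 and 15420 peaks in Control and 99476 and 88987 with IAA. With lists of equal length the Ser2P changes were smaller, 1.52 at FDFT1, 0.47 at SQLE, 2.08 at INSIG1 and 0.23 at SREBF2, and Tyr1P at SREBF2 turned to 0.17 (0.0094 with −log10 q of at least 5).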

How the results depend on the processing

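With −log10 q of at least 5, the Pol II counts became 2 genes with higher cover (1 in the main setting) and 2 with the site peak lost (1), and the Tyr1P difference in peaks became 0 (from 2). With lists of equal length, 2 genes had higher Pol II cover, and the difference in peaks became 6 for Tyr1P and -1 for Ser2P (from 34.5), where shorter lists hold fewer weak peaks by construction. With no flank it became -1.5 for Tyr1P and 19.5 for Ser2P. With 5 kb on each side, 0 genes were higher and 5 lower for Pol II and 1 higher for Tyr1P; LSS turned to -0.30 (Pol II) and -0.24 (Tyr1P) and HMGCS1 to -1.62 (Tyr1P). Tyr1P at SREBF2 turned to 0.0094 with the stricter q and 0.17 with equal lengths. The cause of these changes was not tested, and shares of all genes were computed for the main setting only. Leaving out 1 library at a time gave, for Pol II, 1 to 2 genes higher, 3 to 5 lower (5 without Control replicate 1 or without IAA replicate 2), 5 to 6 with the summit downstream, 1 to 2 with the site lost (2 without IAA replicate 1) and a difference of -6 to -3 peaks. For Tyr1P it gave 3 to 4 higher, 3 to 3 lower, 5 to 6 downstream and 1 to 3 peaks. For Ser2P it gave 7 to 7 higher and 27.5 to 41.5 peaks. A call needs both IAA libraries beyond both Control libraries, so leaving 1 out can only keep or add called genes. The lower ends of these gene counts were therefore fixed in advance. Deviations of same-numbered libraries correlated at 0.229 for Pol II, -0.029 for Tyr1P and -0.121 for Ser2P over 18727 genes, and with 2 pairs and no label that ties the numbers, they were not taken as pairs. With a replicate block, 1 gene was higher and 4 lower for Pol II. For Tyr1P 4 were higher and 3 lower, and for Ser2P 7 were higher. Pairing the Ser2P numbers crosswise also gave 7. A block compares each IAA library with 1 Control library only, a weaker rule, so genes already called could not be lost. With 7 of 7 called for Ser2P, both pairings had to give 7. Depth was lowest in Pol II Control replicate 1, at 2.94 fragments per kb, and in Ser2P Control replicate 2, at 3.28, which limits the weak peaks called there.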

Other observations

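Fatty acid synthesis, the other arm of SREBP control, was counted from a list of 9 genes. Ser2P cover was higher with IAA in 9 of 9, Pol II cover higher in 2 and lower in 1, and Tyr1P cover higher in 4 and lower in 4; Pol II held its main site in all 4 numbered libraries at 9 of 9. The shares of all genes are 64.3% for Ser2P higher, 20.0% and 19.2% for Pol II, 19.4% and 26.4% for Tyr1P, and 72.1% for the Pol II site. FADS2, a fatty acid desaturase, went from 0.839% and 0 under Ser2P peaks in Control to 10.9% and 9.18% with IAA, and its neighbour in function FADS1 from 9.90% and 5.08% to 14.9% and 13.2%. FASN, fatty acid synthase, was chosen after its values were seen: its Ser2P cover was 0 in both Control libraries and 1.09% and 1.34% with IAA, while Pol II cover went from 1.19% and 1.20% to 1.94% and 1.58%.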
